A study of Homo sapiens with 33 samples.

Results

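MKI67, TOP2A, IQGAP3 and FAM111B are 4 of the 58302 genes in the expression matrix, selected on the rise of their levels 48 h after palbociclib was washed out over those under the drug. They were chosen by that contrast, so it is described here without a test. Their values with DMSO and palbociclib in experiments that had no washout library were not part of that contrast, and these were tested. Earlier results of these data were known when the genes were chosen. The sensitive lines tested are also those of the washout experiments, so the test is not independent of the choice. All 4 genes passed the filter on low values, which kept 17803 genes.

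Palbociclib inhibits CDK4 and CDK6, the cyclin D-dependent kinases that phosphorylate the retinoblastoma protein pRb in G1. When pRb is not phosphorylated, E2F target genes and, through the DREAM repressor complex, genes of G2 and mitosis are transcribed less, and cells stop before S phase. The RNA of the genes described here is made mainly in dividing cells. MKI67 encodes Ki-67, the nuclear protein that covers mitotic chromosomes and serves as the usual marker of proliferation in pathology. TOP2A encodes DNA topoisomerase II alpha, which untangles sister DNA before cells divide and is the target of etoposide and doxorubicin. IQGAP3 encodes a scaffold protein of the IQGAP family that binds small GTPases and is found in proliferating cells. FAM111B encodes a trypsin-like nuclear protease, and mutations in it cause a hereditary fibrosing poikiloderma.

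The 33 RNA-seq libraries came from 6 established cell lines. The study calls 4 malignant pleural mesothelioma (MPM) lines, H2052, H2452, H28 and MSTO-211H, sensitive to palbociclib. The resistant lines were MPP89, from MPM with mutant RB1, and MeT-5A, normal mesothelial cells that SV40 immortalized. Cells received 0.1% DMSO (14 libraries) or 1 µM palbociclib (14 libraries) for 9 or 10 days, and 1 MeT-5A library was untreated. In 1 experiment each of the sensitive lines, with 10 days of treatment, further cells that had received palbociclib were rinsed and kept in complete medium for another 48 h (4 washout libraries). Their DMSO and palbociclib libraries were from day 10, and all other pairs from day 9. A group is 1 established line grown in culture, and there is 1 washout library per line. In the tests of each line and of differences among lines, p-values measure the spread between experiments of the same line. In the washout comparisons they measure the spread between lines. The tests over the sensitive pairs and between sensitive and resistant lines count each pair as a replicate. Pairs of the same line are not independent, so these p-values do not extend to other lines. Levels are in CP20M, counts per 20000000 reads, which the authors had rounded up to whole numbers.

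Sequencing depth could be estimated for 23 of them, from 12750000 to 19800000 reads, and mitochondrial genes took between 0.374% and 3.80% of the reads. Of 8 mesothelial markers KRT18 was present in every library (1497 CP20M or more), and KRT5 was at 22 or less everywhere. Other markers were low in some lines. H28 had at most 15 of MSLN, 2 of CALB2 and 4 of PDPN, and MeT-5A had at most 2 of WT1. KRT19 was at most 10 in MSTO-211H, 13 in MPP89 and 3 in MeT-5A. PDPN was at most 3 in MSTO-211H and 20 in MPP89, and UPK3B at most 11 in H2052 and 26 in MSTO-211H. Among 9 markers of leukocytes, endothelium, red cells and lung epithelium, CD68 was the exception at 123 to 1844 CP20M, and no other reached more than 120.

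The genes lie on different chromosomes. In the GENCODE 44 annotation of GRCh38, MKI67 (ENSG00000148773) spans chr10:128096659-128126423 on the minus strand and has 15 exons in its canonical transcript. TOP2A (ENSG00000131747) lies at chr17:40388525-40417896 on the minus strand, with 35 exons, and IQGAP3 (ENSG00000183856) at chr1:156525405-156572604 on the minus strand, with 38 exons. FAM111B (ENSG00000189057) lies at chr11:59107185-59127412 on the plus strand, with 4 exons. Its paralog FAM111A follows on the same strand after 15335 bases. Per kilobase of canonical transcript, the mean DMSO level of the sensitive lines was highest for TOP2A (985 CP20M per kb), then MKI67 (582), IQGAP3 (287) and FAM111B (173).

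The promoters of genes of G2 and mitosis often carry the cell cycle genes homology region (CHR), where the MuvB core of the DREAM complex binds, with CCAAT boxes nearby, where NF-Y binds. E2F sites are typical of G1/S genes. The 250 bases before the transcription start are shown for MKI67, TOP2A and IQGAP3 (RefSeq, build GRCh38.p14), the 3 of 4 genes with a matched promoter. They run 5′ to 3′ on the gene's strand, and capitals mark TTTGAA for the CHR and CCAAT for the box of that name on either strand, so that the reverse complements TTCAAA and ATTGG are capital too.
MKI67, chr10:128126424-128126673, minus strand: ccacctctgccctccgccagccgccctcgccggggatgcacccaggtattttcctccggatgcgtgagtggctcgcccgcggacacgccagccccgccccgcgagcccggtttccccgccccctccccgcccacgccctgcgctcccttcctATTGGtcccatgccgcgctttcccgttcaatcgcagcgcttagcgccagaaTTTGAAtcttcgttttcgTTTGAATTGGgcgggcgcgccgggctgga
TOP2A, chr17:40417897-40418146, minus strand: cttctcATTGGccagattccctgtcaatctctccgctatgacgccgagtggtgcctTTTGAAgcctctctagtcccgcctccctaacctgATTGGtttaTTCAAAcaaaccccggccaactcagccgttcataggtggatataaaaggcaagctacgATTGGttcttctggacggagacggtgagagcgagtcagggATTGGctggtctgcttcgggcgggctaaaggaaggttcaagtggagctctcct
IQGAP3, chr1:156572566-156572815, minus strand: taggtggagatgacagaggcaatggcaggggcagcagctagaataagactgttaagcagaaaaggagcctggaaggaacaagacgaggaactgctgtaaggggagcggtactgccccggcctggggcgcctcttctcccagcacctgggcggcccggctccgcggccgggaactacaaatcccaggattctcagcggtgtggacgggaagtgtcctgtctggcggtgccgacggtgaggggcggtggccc

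In MKI67, CHR matches began at -47 and -29 from the start and CCAAT boxes at -98 and -24. The second CHR and the second CCAAT box share 1 base. In TOP2A, CHR matches began at -194 and -151, and 4 CCAAT boxes at -244, -160, -93 and -53. IQGAP3 had neither motif before its start, but a CHR match from 13 to 18 bases into the transcript, at chr1:156572543-156572558, which reads ggagaTTCAAAcctgg with the match in capitals. The E2F core TTCCCGC, searched on both strands, had no match in the 3 windows of 300 bases. Of 27305 RefSeq promoter windows of that length, 1 per gene, 15.4% held the CHR, 35.7% a CCAAT box and 6.56% the E2F core. Among lists of cell cycle genes, the CHR was in 15 of 23 matched promoters of G2/M genes and in 0 of 20 of G1/S genes, whereas the E2F core was in 0 of 23 and in 12 of 20. These matches are letters in a window and not measured binding, and their part in the levels was not tested.

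**Figure D1:**
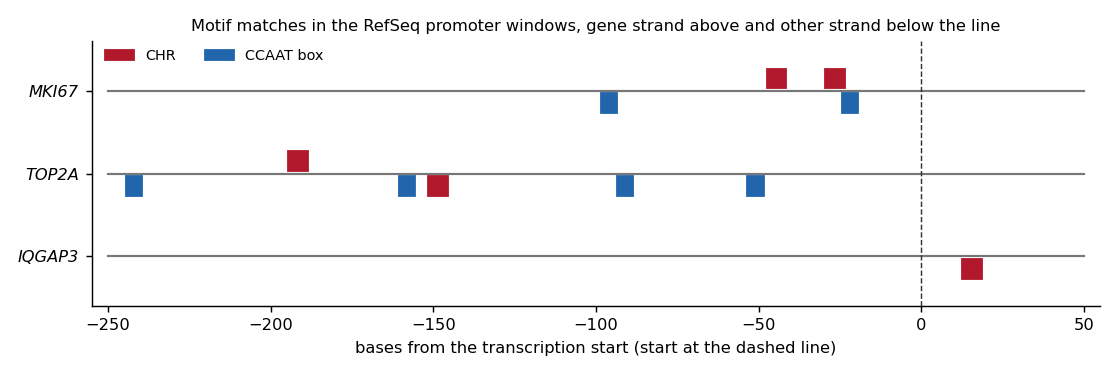
Position of CHR and CCAAT box matches in the promoter windows of MKI67, TOP2A and IQGAP3, in bases from the transcription start (x axis), with matches on the gene's strand above each line and on the other strand below. MKI67 and TOP2A each have 2 CHR matches upstream of the start, and the IQGAP3 match lies after it.

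MKI67 fell in every sensitive line under palbociclib and kept its level in the resistant lines. In H2052 it was at 11235 and 4725 CP20M with DMSO and at 1949 and 806 with palbociclib, in the order of the experiments. In H2452 the 3 DMSO libraries had 9136, 7589 and 7680 and the palbociclib libraries 200, 403 and 177. This was the deepest fall of any line, to between 2.19% and 5.31% of the paired DMSO library. In H28 MKI67 was at 11301, 7923 and 10717 with DMSO and at 1990, 2496 and 1816 with palbociclib, and in MSTO-211H at 3355, 1555 and 5593 against 1265, 171 and 777. In none of the 4 lines did DMSO and palbociclib libraries overlap. Here and for the genes below, they include palbociclib libraries whose values chose the genes. The share of all genes without overlap was not counted. The resistant lines behaved otherwise, with 8453 and 10310 against 9100 and 10224 in MPP89, and 11573 against 12821 in MeT-5A, where the untreated library had 11330.

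TOP2A followed MKI67 closely. In H2052 it was at 7233 and 4309 CP20M with DMSO and at 1491 and 673 with palbociclib, and in H2452 at 6241, 5088 and 6135 against 259, 487 and 226. H28 had 7232, 5851 and 7883 against 1550, 2007 and 1216. MSTO-211H was the most uneven line, with 2698, 2844 and 6049 with DMSO against 1496, 353 and 1054, so that 1 of its pairs kept 55.4% of the DMSO level and another 12.4%. No DMSO library was as low as a palbociclib library of the same sensitive line. MPP89 had 8622 and 10962 against 9213 and 10954, and MeT-5A had 10227 against 10024, with 7867 in the untreated library.

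IQGAP3 was a less abundant transcript with the same course. It was at 2294 and 1418 CP20M against 323 and 147 in H2052, and at 1974, 1243 and 1518 against 62, 91 and 49 in H2452. H28 had the highest levels under the drug among the sensitive lines, with 2535, 2330 and 2990 against 723, 866 and 568. In MSTO-211H the DMSO libraries had 727, 427 and 1429 and the palbociclib libraries 286, 52 and 189. Again the groups did not overlap in any sensitive line. In MPP89 both palbociclib libraries (4084 and 4061) were above both DMSO libraries (3841 and 3492), a difference that did not pass the test below, and MeT-5A had 4630 with DMSO, 5074 with palbociclib and 7195 untreated.

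FAM111B had the lowest levels of the group. In H2052 it was at 1119 and 386 CP20M with DMSO and at 121 and 32 with palbociclib. In H2452 it was at 765, 826 and 814 against 17, 45 and 14, of which 14 and 17 were the lowest values of any of the 4 genes. In H28 it was at 745, 713 and 663 against 187, 249 and 97. MSTO-211H was the exception to the separation seen elsewhere, since its DMSO libraries had 200, 90 and 195 and its palbociclib libraries 98, 25 and 55. Its highest palbociclib value thus exceeded its lowest DMSO value, although each palbociclib library was below the DMSO library of its own experiment. MPP89 had 671 and 847 against 664 and 772, and MeT-5A had 1458 against 1462, with 1096 untreated.

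**Figure D2:**
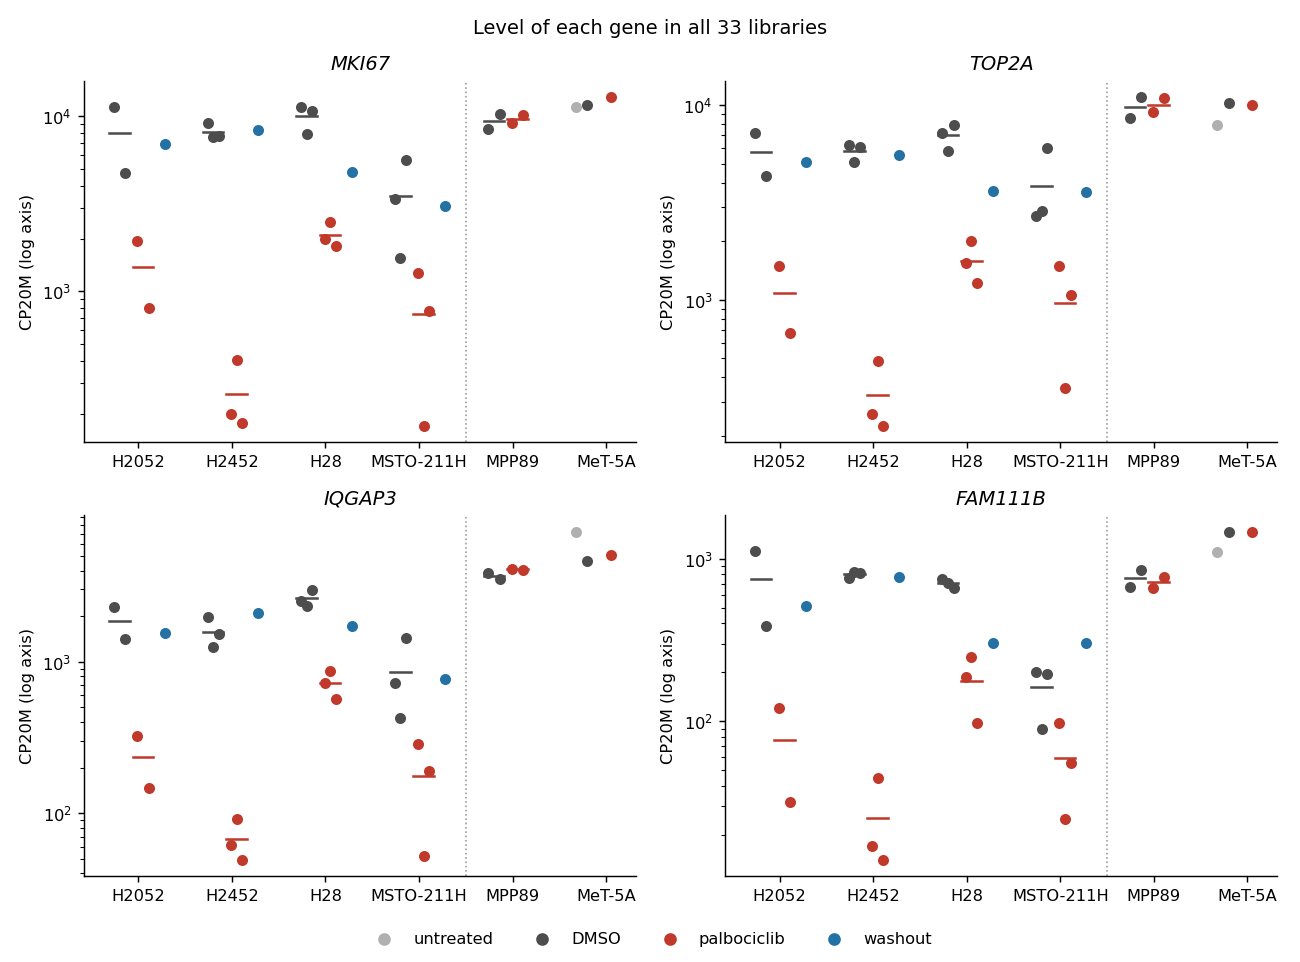
CP20M (log axis) of each gene in all 33 libraries by line and condition, each point 1 library and each bar the mean of 2 or 3 libraries, with the resistant lines right of the dotted line. DMSO and palbociclib points are apart in 15 of the 16 combinations of gene and sensitive line, the exception being FAM111B in MSTO-211H, and lie together in MPP89 and MeT-5A. The share of all genes that were apart in this way was not counted, and the palbociclib points include libraries whose values chose the genes.

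The order of the lines in growing cells was alike for the 4 genes at its ends. With DMSO, MeT-5A had the highest mean level and MSTO-211H the lowest of every one of them. For MKI67 the means ran from MeT-5A (11573 CP20M, 1 library) through H28 (9980 ± 1805, SD, n = 3), MPP89 (9382, n = 2), H2452 (8135 ± 868, n = 3) and H2052 (7980, n = 2) to MSTO-211H (3501 ± 2023, n = 3). Each line from H28 down overlapped the next. For FAM111B, H2452 (802 ± 32.3), MPP89, H2052 and H28 (707 ± 41.3) overlapped their neighbours, and MSTO-211H (162 ± 62.1) was below H28 without overlap. The DMSO levels differed among lines for all 4 genes (limma F test, adjusted p from 0.000133 for FAM111B to 0.0116 for MKI67), but 95.6% of the genes tested did so too. With palbociclib the resistant lines were above every sensitive line without overlap, followed by H28, H2052, MSTO-211H and, lowest for each gene, H2452. Neighbours among the sensitive lines overlapped, except H28 and H2052 for IQGAP3.

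The question of the first test was whether the fall under palbociclib held in other pairs of the same sensitive lines. The libraries of these pairs were not in the contrast that chose the genes. In the 7 pairs without a washout library, palbociclib lowered all 4 genes in 7 of 7 pairs. On the log2(CP20M + 10) scale, which understates changes of low genes, MKI67 fell by 2.98 (SE 0.43, limma adjusted p = 0.00215), IQGAP3 by 2.65 (SE 0.38, adjusted p = 0.00215), FAM111B by 2.54 (SE 0.44, adjusted p = 0.00421) and TOP2A by 2.53 (SE 0.37, adjusted p = 0.00218). A gene was called when the Benjamini-Hochberg FDR over all genes tested was under 0.05 and the fold change beyond 1.5, and 6.86% of the genes were called lower in this comparison. In bulk libraries, fewer cells with the RNA and less RNA per cell cannot be told apart. The level left under palbociclib ranged from 2.19% to 37.7% of DMSO for MKI67, from 4.15% to 55.4% for TOP2A, from 3.14% to 39.3% for IQGAP3 and from 2.22% to 49.0% for FAM111B. All 4 calls held under each of the 16 alternative settings. These include the use of all pairs, which brings back libraries that chose the genes.

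Over all genes the balance of calls in these pairs depended on the scaling. With the deposited scaling 1222 genes were called lower and 656 higher, with a median change of -0.09 over all genes. Median-of-ratios scaling gave 694 lower and 1234 higher (median 0.06), and upper-quartile scaling 919 and 802 (median -0.03). Under median-of-ratios scaling MKI67 changed by -2.81, TOP2A by -2.36, IQGAP3 by -2.48 and FAM111B by -2.38, with limma adjusted p between 0.00316 and 0.00594. Over all alternatives adjusted p ranged from 1.11e-05 to 0.0180. The lowest, for IQGAP3, came from using all pairs, which brings back libraries that chose the genes.

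Line by line, in a fit of 10 pairs that shares 1 estimate of the spread, all 4 genes were called lower in each sensitive line. H2452 had the largest changes, with -4.82 for MKI67, -4.38 for FAM111B, -4.21 for IQGAP3 and -3.95 for TOP2A, where 8.5% of the genes were called lower. In H2052, with 1 pair in this fit, FAM111B changed most (-3.11), followed by IQGAP3 (-2.79), MKI67 (-2.52) and TOP2A (-2.27), against 12.3% of the genes. H28 had -2.08 for MKI67, -1.88 for TOP2A, -1.71 for FAM111B and -1.61 for IQGAP3 (6.49% of the genes). MSTO-211H had -2.26 for MKI67, -2.07 for IQGAP3, -1.91 for TOP2A and -1.24 for FAM111B (12.4% of the genes). In MPP89 and MeT-5A none of the 4 was called. Their estimates lay between -0.07 and 0.15, and 0.0% of the genes were called lower in either line (102 and 109 genes had an unadjusted p under 0.05 in limma).

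The calls in H2052 and H28 rested on few pairs. Without the first or the second MPP89 pair 1 of the 4 genes was called in H2052 (FAM111B) and 2 in H28 (MKI67 and FAM111B). Without the first H28 pair none was called in H28, and without the second only FAM111B. The call of TOP2A in H2052 (adjusted p = 0.0478) was also lost without any 1 of the pairs of H2452 or H28, with adjusted p from 0.0644 to 0.0827, and its adjusted p ranged from 0.000813 to 0.204 over all alternatives. In MSTO-211H the sizes rested on the 2 pairs unequally. Leaving out the second pair moved MKI67 to -1.40 and IQGAP3 to -1.32, which were still called, and TOP2A to -0.85 (adjusted p = 0.114, the range over alternatives being 0.000333 to 0.116) and leaving out the first moved these genes to -3.11, -2.82 and -2.97. FAM111B, at -0.96 and -1.51, stayed called without either, and TOP2A changed less than it without the second pair.

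**Figure D3:**
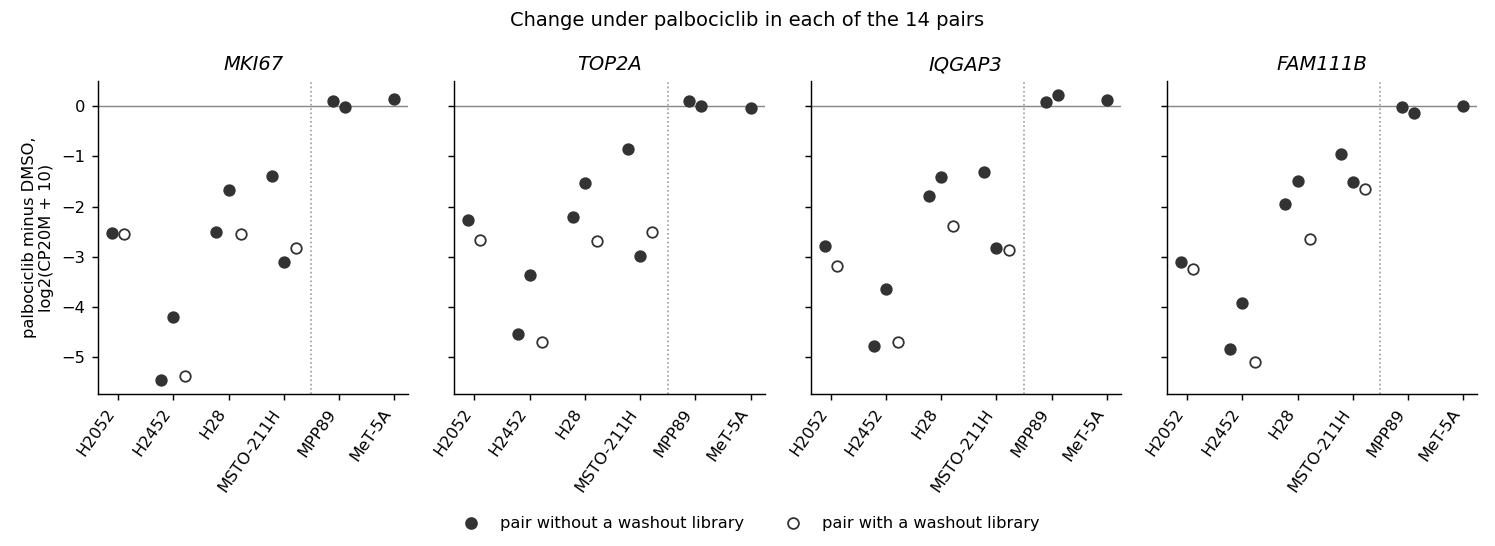
Change under palbociclib, as palbociclib minus DMSO in log2(CP20M + 10), for each gene in the 14 pairs by line, with filled points for the 10 pairs without a washout library, which were tested, and open points for the 4 pairs with one. All 11 pairs of sensitive lines lie below 0 for every gene, with H2452 lowest, and the 3 pairs of the resistant lines lie near 0.

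The difference in response between sensitive and resistant lines was tested as an interaction, with pairs of 4 and 2 lines counted as replicates. It was -3.06 for MKI67 (SE 0.71, adjusted p = 0.0397), -2.80 for IQGAP3 (SE 0.63, adjusted p = 0.0365) and -2.56 for TOP2A (SE 0.60, adjusted p = 0.0421), and these 3 genes were called, against 2.57% of all genes. For FAM111B it was -2.49 (SE 0.72), which did not pass the threshold (adjusted p = 0.0753). The 3 calls are close to the threshold. None was called without the H2052 pair, the second H2452 pair, either MPP89 pair or the MeT-5A pair, and only IQGAP3 without the first H28 pair. Without the second MSTO-211H pair TOP2A missed the threshold, and without the first one FAM111B passed it.

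The size of the fall also differed among the sensitive lines. The F test over the 4 lines was past the threshold for FAM111B (adjusted p = 0.00738), IQGAP3 (adjusted p = 0.0416) and MKI67 (adjusted p = 0.0461) and not for TOP2A (adjusted p = 0.122), and 13.4% of all genes were called. In the cell cycle lists described below, 16 of 24 G1/S genes and 3 of 30 G2/M genes were called in this test. The FAM111B call also held when any single pair was left out. Those of MKI67 and IQGAP3 were lost without any single pair of H2452, H28 or MPP89, while TOP2A passed without either MSTO-211H pair (adjusted p = 0.0276 and 0.0108, range over alternatives 0.0108 to 0.477).

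All 4 genes were higher after washout than with palbociclib in 4 of 4 lines, which is how they were chosen. The DMSO and palbociclib libraries of these experiments were from day 10, and the washout libraries had 48 h more in culture. Every comparison of washout with DMSO or with palbociclib is therefore between cultures of different age. Time in culture, rinsing and removal of the drug cannot be told apart in it. In H2052 MKI67 went from 4725 CP20M with DMSO to 806 with palbociclib and 6920 after washout, TOP2A from 4309 to 673 and 5081, IQGAP3 from 1418 to 147 and 1538, and FAM111B from 386 to 32 and 513. H2052 was the line in which all 4 genes ended above the DMSO library of the same experiment, at 108% to 146% of it. In H2452 MKI67 went from 7680 to 177 and 8328, TOP2A from 6135 to 226 and 5544, IQGAP3 from 1518 to 49 and 2100, and FAM111B from 814 to 14 and 767. These were the largest rises over palbociclib, from 23.5-fold for TOP2A to 44.6-fold for MKI67 on the scale with 10 CP20M added, and they ended at 90.4% to 138% of DMSO.

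In H28 the rise was smaller. MKI67 went from 10717 with DMSO to 1816 with palbociclib and 4824 after washout, TOP2A from 7883 to 1216 and 3610, IQGAP3 from 2990 to 568 and 1725, and FAM111B from 663 to 97 and 303. The 4 genes rose 2.65-fold to 3.00-fold and ended at 45.0% to 57.7% of DMSO, below each of the 3 DMSO libraries of the line. The H28 washout library also had the highest mitochondrial share of the series (3.80%, against 0.594% to 1.05% in the other 3 washout libraries and 1.63% to 2.37% in H28 with palbociclib), and the part of this in the result was not tested. In MSTO-211H MKI67 went from 5593 to 777 and 3093, TOP2A from 6049 to 1054 and 3595, IQGAP3 from 1429 to 189 and 768, and FAM111B from 195 to 55 and 301. FAM111B thus ended at 154% of DMSO in MSTO-211H and above all 3 DMSO libraries of the line, whereas the other three genes were at 53.7% to 59.4%. Of the 16 combinations of gene and line, 10 washout values lay within the range of the line's DMSO libraries. Below it were 4, all in H28, and above it 2, IQGAP3 in H2452 and FAM111B in MSTO-211H. High washout values were favoured by the choice of the genes, and the share of all genes in each place was not counted.

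**Figure D4:**
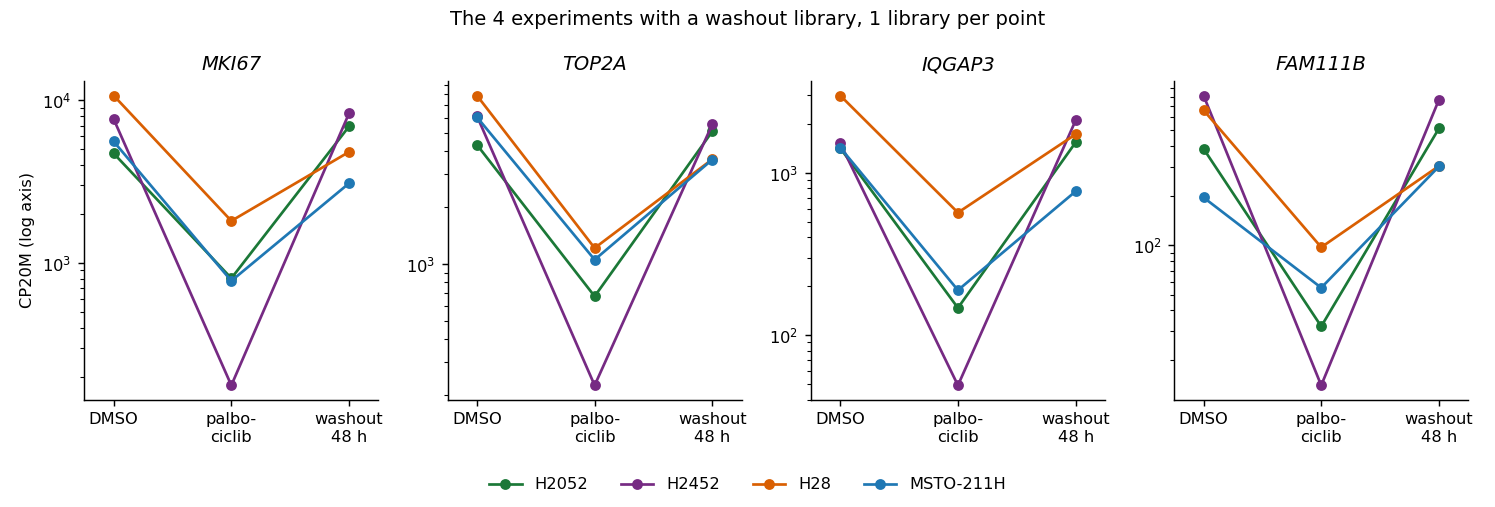
CP20M (log axis) of each gene with DMSO, palbociclib and 48 h after washout in the 4 experiments that had a washout library, 1 line per colour and 1 library per point. All lines fall and rise again. H2452 has the deepest trough and H28 stays lowest relative to its own DMSO library for MKI67, TOP2A and FAM111B.

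Over the 4 lines, washout minus palbociclib averaged 3.12 on the log2 scale for FAM111B (SD 1.54, n = 4 lines), 3.00 for IQGAP3 (SD 1.62), 2.99 for MKI67 (SD 1.80) and 2.69 for TOP2A (SD 1.37), values that chose the genes. Without H2452 these averages were 2.48, 2.28, 2.16 and 2.07. FAM111B held rank 1 of the 17803 genes, IQGAP3 rank 3, MKI67 rank 4 and TOP2A rank 19, and NDC80, a kinetochore gene, came next with 2.67. The kinesin gene KIF20A was at rank 2 with 3.03. The place of FAM111B depended on the pseudocount, the constant added to CP20M before the logarithm. With a pseudocount of 50 it averaged 2.36, the lowest of the 4 genes, below MKI67 (2.89), IQGAP3 (2.69) and TOP2A (2.61). With a pseudocount of 1 it stayed the highest of the 4 (3.43). In this contrast 1.4% of all genes were called higher and none lower (limma, with the line as a block, and 2322 genes had an unadjusted p under 0.05), and 0 in either direction without the block (342 with an unadjusted p under 0.05). Against DMSO the 4 genes averaged between -0.45 and -0.05 after washout (SD 0.61 to 0.80).

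Genes of the cell cycle were read in 2 lists, 24 genes of G1/S (DNA replication and its control) and 30 genes of G2/M (mitotic kinases, kinesins, kinetochore and cytokinesis). In the 7 pairs 18 of 24 G1/S genes were called lower, with a median of -1.17, from RRM2 (-2.50, ribonucleotide reductase) and MCM10 (-2.41, replication initiation) to MCM3 (-0.53) and SLBP (-0.31), and none higher. All 30 G2/M genes were called lower, with a median of -2.22, from CDK1 (-2.86, the mitotic kinase) and KIF20A (-2.77) to AURKA (-1.36) and ECT2 (-0.93), against a median of -0.09 over all genes. The 4 genes, at -2.98 to -2.53, were therefore beyond the median of both lists. The shares called parted most in MSTO-211H, with 5 of 24 G1/S genes called lower (median -0.27) and 24 of 30 G2/M genes (median -1.76). The medians were as far apart in H2452, at -1.90 and -3.40, where 23 of 24 and 30 of 30 were called. In MPP89 and MeT-5A no gene of either list was called in limma or had an unadjusted p under 0.05, and the medians were between -0.05 and 0.00.

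After washout 28 of 30 G2/M genes were called higher than with palbociclib, with a median of 2.34, from KIF20A (3.03) and CDK1 (2.93) to CDCA2 (1.62) and ECT2 (1.05). Of the G1/S genes 11 of 24 were called higher, with a median of 1.22, from RRM2 (2.91) and CLSPN (2.16, a checkpoint adaptor) to MCM6 (0.53) and SLBP (0.33). The median over all genes was 0.09. Every gene of both lists was higher after washout in each of the 4 lines. With 1 washout library per line these calls were fragile, since without H2052, H2452 or MSTO-211H no gene of either list was called, and without H28 15 G2/M genes and no G1/S gene. Against DMSO no gene of either list was called higher or lower in limma (6 of 24 G1/S genes and 1 of 30 G2/M genes had an unadjusted p under 0.05), with medians of -0.42 (G1/S) and -0.43 (G2/M) and 2.95% of all genes called lower and 2.81% higher. Without H2452, 1 G1/S gene was called lower than DMSO. Relative to its own DMSO library H28 had the lowest G2/M levels after washout, with a median of -1.04, followed by MSTO-211H with -0.78, and both had 0 of 30 genes at or above DMSO. H2452 had a median of -0.05 and 10 of 30 genes at or above DMSO, and H2052 0.25 and 25 of 30.

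**Figure D5:**
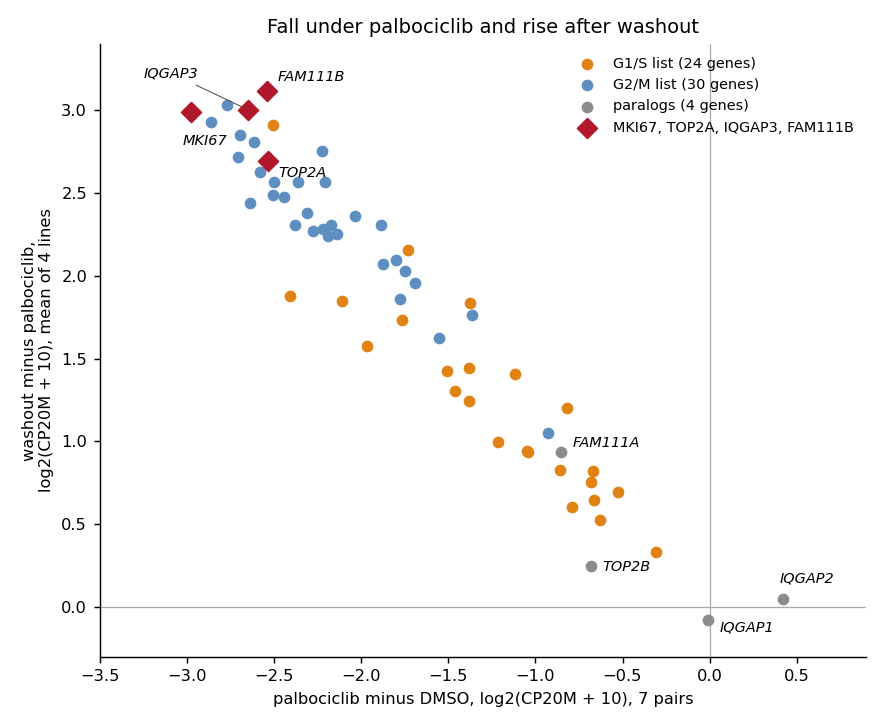
Fall under palbociclib in the 7 pairs without a washout library (x axis) and rise after washout as the mean of 4 lines (y axis), both as differences in log2(CP20M + 10), for the G1/S list, the G2/M list, the paralogs and the 4 genes, each point 1 gene. The 4 genes lie in the upper left corner among the G2/M genes that fell and rose most. They were chosen by the values of the y axis, so their height on it was fixed in advance. RRM2 is the G1/S gene beside them, with a rise (2.91) above that of TOP2A (2.69), the other G1/S genes rose less than each of the 4, and IQGAP1, IQGAP2 and TOP2B lie near 0 on the y axis.

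The paralogs had smaller changes. For FAM111A and TOP2B the DMSO and palbociclib libraries still did not overlap in any sensitive line. The share of all genes without overlap was not counted. FAM111A, the neighbour and paralog of FAM111B and a protease that acts at replication forks, fell by 0.85 in the 7 pairs (SE 0.14, adjusted p = 0.00336), and was called lower in each of the 4 sensitive lines. After washout it rose by 0.94 on average (SD 0.37) in 4 of 4 lines. In H2452, where FAM111B went from 814 CP20M to 14 and 767, FAM111A went from 2820 to 1542 and 2659. TOP2B, the isoform of topoisomerase II that is also made in cells that do not divide, fell by 0.68 (SE 0.09, adjusted p = 0.00167). Its washout values (2219, 1625, 2971 and 2544 in H2052, H2452, H28 and MSTO-211H) were all below the DMSO libraries of the same line, at 55.2% to 70.2% of the DMSO library of the same experiment. IQGAP1, the widely expressed member of its family, was at 6052 CP20M or more in every DMSO library, and changed by -0.01 (SE 0.07, adjusted p = 0.927). IQGAP2 was at 12 to 82 CP20M in DMSO libraries of the sensitive lines and changed by 0.42 (SE 0.22, adjusted p = 0.174).

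The 33 libraries share lines, experiments and one scaling, and they include those whose contrast chose the 4 genes. High correlation among the 4 is therefore partly built in by the choice. Across all 33 libraries r was from 0.953 (TOP2A and FAM111B) to 0.980 (MKI67 and TOP2A) on the log2 scale. The genes most like MKI67 were PLK1 (r = 0.985), a mitotic kinase, and the kinesins KIF18B (0.984) and KIF20A (0.984). Those most like TOP2A were KIF18B (0.986), CKAP2L (0.984) and KIF4A (0.983), and those most like IQGAP3 were KIF14 (0.988), KIFC1 (0.988) and SPAG5 (0.983), again genes of the spindle. FAM111B was closest to KIF20A (0.979), RACGAP1 (0.974) and CDCA8 (0.972), genes of cytokinesis and of the chromosomal passenger complex. Within lines, after each line's mean was taken off, the 4 genes correlated with each other with r from 0.961 to 0.991.

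The difference between MKI67 and TOP2A was read within pairs, a comparison chosen after the values were seen and not tested. MKI67 minus TOP2A, on the log2 scale, was lower with palbociclib than in the paired DMSO library in 3 of 3 pairs of H2452 (change of -0.91 to -0.66) and in 3 of 3 pairs of MSTO-211H (-0.55 to -0.14), so MKI67 fell further than TOP2A in each of these pairs. In H28 the change of this difference was between -0.28 and 0.13, lower in 2 of 3 pairs, and in H2052 it was -0.25 and 0.12. In H2452 the levels of the difference were also apart, between 0.32 and 0.58 with DMSO, between -0.36 and -0.27 with palbociclib and 0.59 after washout. In MSTO-211H, whose DMSO libraries ranged from -0.87 to 0.31, the groups overlapped.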

How the data were processed

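RNA-seq of 6 cell lines was analysed from 1 matrix. Per the study's methods, reads were paired-end from directional libraries. Per the records of the samples, the authors trimmed them with Trimmomatic 0.36, mapped them with STAR 2.5.3 to GRCh38 and counted them per gene with HTSeq 0.9.1. Each library was scaled to 20000000 reads. The deposited values are a score (CP20M) that the authors rounded up to whole numbers, so they were not treated as counts. Column totals were 20007662 to 20021400 and do not give the depth. It was estimated for 23 libraries (median 16350000 reads) from skipped whole numbers, and the other 10 libraries skipped none.

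The tests covered genes that reached 100 CP20M in 1 or more libraries. The scale was log2(CP20M + 10), and the model was fitted with limma 3.58.1 (lmFit, eBayes with trend) in R 4.3.3. The experiment was the block, the paired model of the study's methods. Deviations of paired libraries correlated with r from 0.18 to 0.78 across genes. Main tests used the 7 sensitive and 3 resistant pairs without a washout library. Replicates had equal values at no more than 4.33% of genes. Functions were tested on simulated data. The members and gene lists were chosen with earlier results of these data known. Named were the 4 genes, their paralogs, the 2 highest and 2 lowest genes of the cell cycle lists, ranks with the next gene, and the 3 genes most correlated with each. Alternatives changed the pseudocount (1, 50), filter, scaling, trend, block and pairs. Using all pairs brings back the palbociclib libraries that chose the genes, so that alternative is not independent of the choice. Annotation was GENCODE 44, promoters were RefSeq's, and figures were drawn with matplotlib 3.10.9.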

Additional observations from a re-analysis of the deposited data

Results flagged for a closer look

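The response to palbociclib differed between the sensitive and the resistant lines by the interaction test for MKI67 (-3.06 on the log2 scale), IQGAP3 (-2.80) and TOP2A (-2.56). The fall under palbociclib differed among the sensitive lines by the F test for MKI67 (adjusted p = 0.0461), IQGAP3 (adjusted p = 0.0416) and FAM111B (adjusted p = 0.00738), all from limma over 17803 genes. None of the 12 sets of differences that were checked was flagged by Dixon's gap test. They were, for each of the 4 genes, palbociclib minus DMSO in the 7 pairs and washout minus palbociclib and washout minus DMSO in the 4 lines.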

How the results depend on the processing

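With the replicate block removed, so that the pairing was not used, all 4 genes were still called lower over the 7 sensitive pairs, but 1 in H2052, 0 in H28 and 2 in MSTO-211H were called, 0 differed among sensitive lines, and 0 G1/S and 0 G2/M genes were called higher after washout. Without the filter, 1, 1 and 0 of the 4 genes were called in H2052, H28 and MSTO-211H, 0 in the difference between sensitive and resistant lines, 0 among sensitive lines, and 7 G1/S genes after washout. Median-of-ratios scaling left 2 in H2052, 0 between sensitive and resistant lines, 1 among sensitive lines and 5 G1/S genes after washout. Without the trend in eBayes these were 0 between sensitive and resistant lines, 1 among sensitive lines and 6 G1/S genes, and with a pseudocount of 1 there was 1 among sensitive lines. The cause was not tested.

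Leaving out 1 pair gave 1 to 4 of the 4 genes in H2052, 0 to 4 in H28, 3 to 4 in MSTO-211H, 0 to 4 between sensitive and resistant lines and 1 to 4 among sensitive lines. Leaving out 1 line gave 0 to 0 G1/S and 0 to 15 G2/M genes higher after washout, and 0 to 1 G1/S gene lower than DMSO. Results that kept every call were the 4 genes over the 7 pairs, in H2452, in MPP89 and MeT-5A (none called), and in DMSO levels. Estimates that changed sign were all near 0 and in resistant lines: MKI67 (-0.012 to 0.11) and TOP2A (-0.0011 to 0.10) in MPP89 without 1 of its pairs, and in MeT-5A TOP2A at 0.058 with upper-quartile and FAM111B at -0.016 with median-of-ratios scaling. Calls of all genes are also moved by a pseudocount of 50 (807 lower and 418 higher) and by using all pairs (1669 and 994). With 1 washout library per line, differences between lines after washout have no replicate, and FAM111B rests on few reads at its lowest levels.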
